A study of Mus musculus with 6 samples.

Results

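Iron-sulfur clusters are small inorganic cofactors of iron and sulfide that carry electrons or hold enzymes and DNA-processing proteins in shape. Their assembly begins in mitochondria, where the ISC (iron-sulfur cluster) machinery takes sulfur from cysteine and builds a cluster on a scaffold protein, and continues in the cytosol, where the CIA (cytosolic iron-sulfur assembly) machinery serves proteins of the cytosol and nucleus. Osteoclasts, the multinucleate cells that resorb bone, hold many mitochondria, whose respiratory chain contains several iron-sulfur proteins. With earlier results of these data known, the 9 assembly genes were chosen by name, as the rows with these symbols among 26699 gene rows. They comprise 6 genes of the mitochondrial machinery (Iscu, Nfs1, Isca1, Isca2, Glrx5 and Hscb) and 3 of the cytosolic machinery (Ciapin1, Ciao1 and Nubp2). All 9 passed the filter on low counts, as did 16843 genes in all.

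The cells were primary bone marrow macrophages from mice aged 8 weeks, grown in 10 ng/mL M-CSF, a macrophage growth factor, and then held for 48 hours in 30 ng/mL M-CSF and 50 ng/mL RANKL, which drives macrophages to become osteoclasts. The knockout cells (cKO, genotype LysmCre-Slc11a2flox/flox) carried floxed Slc11a2 alleles and a Cre recombinase driven by the lysozyme M gene, which is active in myeloid cells. The control cells (genotype Slc11a2flox/flox) carried the floxed alleles without Cre, so effects of Cre itself and of Slc11a2 loss cannot be told apart. There were 3 libraries of each genotype. The labels do not say whether each came from its own mouse or culture, so the p-values rest on variation among libraries that may in part be technical. Slc11a2 encodes DMT1, which carries ferrous iron into the cytosol. The comparison addresses how expression in these differentiating cells changes when that transporter is deleted.

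Total counts per library ran from 49720701 to 57797282, so that 1 read equalled 0.0173 to 0.0201 CPM, the unit of counts scaled to library size. Slc11a2 stood at 78.3, 82.8 and 87.4 CPM in cKO replicates 1 to 3, against 119, 110 and 118 CPM in control replicates 1 to 3, so reads remained in every cKO library (log2 fold change -0.48 with a standard error, SE, of 0.06, edgeR adjusted p = 0.00219). Lyz2, the lysozyme M gene that carries the Cre, fell to 7780 ± 96.8 CPM in cKO, against 17100 ± 1580 CPM in control cells (mean ± SD, n = 3 each; adjusted p = 9.39e-06). Of the osteoclast markers, all 8 had negative log2 fold changes around a median of -0.39, with 0 called by edgeR, 3 at an unadjusted p below 0.05 and 0 by DESeq2 or limma-voom, and their summed level was 8200 to 11700 CPM in cKO and 11300 to 14700 CPM in control libraries. Macrophage markers summed to 6220 to 6730 CPM in cKO and 6430 to 6950 CPM in control libraries. Markers of stroma were also high, at 3160 to 5090 CPM in cKO and 3360 to 3930 CPM in control libraries. Most of this came from type I collagen genes. All 5 stroma markers had positive log2 fold changes around a median of 0.42. Of the 5, 0 were called by edgeR, DESeq2 or limma-voom, and 1 was at an unadjusted p below 0.05. Neutrophil markers summed to 47.0 to 60.8 CPM in cKO and 20.5 to 25.7 CPM in control libraries. Of 6 tested, 4 were called higher by edgeR, against 1.36% of all genes tested, and 1 (Mpo) had a negative log2 fold change (-0.82). Markers of erythroid cells, which need iron-sulfur assembly for heme synthesis, summed to at most 1.36 CPM in any cKO and 1.06 CPM in any control library. In such bulk RNA, fewer cells of a type and less RNA per cell cannot be told apart, and the part of these markers in the results below was not tested.

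The 9 genes lie on 6 chromosomes, and 7 of them start head to head with a protein-coding neighbour, that is, on opposite strands with the start sites at most 1000 bp apart. Among 13474 protein-coding genes tested, 14.8% had such a neighbour in the same files. On mm10, Iscu (ENSMUSG00000025825, chromosome 5, 113772748 to 113778288, plus strand) starts 238 bp from Sart3, and Hscb (ENSMUSG00000043510, chromosome 5, 110829070 to 110839777, minus strand) starts 202 bp from Chek2. Isca2 (ENSMUSG00000021241, chromosome 12, 84773251 to 84775088, plus strand) starts 99 bp from Npc2, Ciao1 (ENSMUSG00000003662, chromosome 2, 127240938 to 127247816, minus strand) 92 bp from Tmem127, and Nubp2 (ENSMUSG00000039183, chromosome 17, 24882611 to 24886349, minus strand) 294 bp from Spsb3.

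At the remaining 2 head-to-head pairs the genes overlap at their starts. Nfs1 (ENSMUSG00000027618, chromosome 2, 156123639 to 156144186, minus strand) shares 148 bp with Romo1, and Ciapin1 (ENSMUSG00000031781, chromosome 8, 94819804 to 94838358, minus strand) shares 38 bp with Coq9; both partners encode mitochondrial proteins. Nfs1 also shares 3454 bp on its own strand with Gm28036, a gene model whose counts ranged from 127 to 916 in cKO and from 469 to 1920 in control libraries. Isca1 (ENSMUSG00000044792, chromosome 13, 59755409 to 59769810, minus strand) overlaps Etohd2 on the opposite strand over 314 bp. Glrx5 (ENSMUSG00000021102, chromosome 12, 105032688 to 105042906, plus strand) had neither an overlapping row nor a head-to-head neighbour. The sources used here do not say whether counting used the strand, so reads in the opposite-strand overlaps of Nfs1, Ciapin1 and Isca1 are uncertain. Reads in the overlap of Nfs1 with Gm28036 are uncertain with either setting, since both lie on the same strand.

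RefSeq promoter windows of 300 bases (250 before to 50 after the start, build GRCm38.p6) were found for 7 of the 9 genes, all but Iscu and Hscb; Nubp2 has 3 windows, of which the one nearest to its start in the files was used. They were searched on both strands for the core of the factor NRF1 (GCGC and TGCGC with 1 base of any kind between them), the core CCGGAAGT of ETS factors and the core TGACNNNGC of the antioxidant response element. These occur in 4.60%, 3.89% and 12.4% of all 32851 windows in the table, and in 1, 3 and 4 of the 7 member windows. The NRF1 core was in the window of Isca1, the ETS core in those of Nfs1, Isca1 and Ciao1, and the antioxidant core in those of Nfs1, Isca1, Ciapin1 and Ciao1. The windows were rich in CpG, with 14 to 35 per window against a median of 7 over the table, and only that of Nubp2 (49.0%) was below the table's median GC content of 52.7%. Shown 5′ to 3′, with matches to the 3 cores in capitals and no overlap between matches, are the windows of Nfs1 and Isca1, which hold the most matches, and of Isca2 and Nubp2, which hold none. The window of Glrx5, which is not shown, holds none either. In TMM-scaled CPM, Nfs1 overlapped between genotypes, and Isca1, Isca2 and Nubp2 did not.
Nfs1 (chr2:156144137-156144436, minus strand): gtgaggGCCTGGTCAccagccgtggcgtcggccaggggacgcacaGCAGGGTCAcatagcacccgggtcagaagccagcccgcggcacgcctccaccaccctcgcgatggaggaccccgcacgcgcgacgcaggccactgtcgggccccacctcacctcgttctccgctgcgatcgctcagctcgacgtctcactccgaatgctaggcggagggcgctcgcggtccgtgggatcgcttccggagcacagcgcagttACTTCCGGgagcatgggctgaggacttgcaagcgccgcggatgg
Isca1 (chr13:59769740-59770039, minus strand): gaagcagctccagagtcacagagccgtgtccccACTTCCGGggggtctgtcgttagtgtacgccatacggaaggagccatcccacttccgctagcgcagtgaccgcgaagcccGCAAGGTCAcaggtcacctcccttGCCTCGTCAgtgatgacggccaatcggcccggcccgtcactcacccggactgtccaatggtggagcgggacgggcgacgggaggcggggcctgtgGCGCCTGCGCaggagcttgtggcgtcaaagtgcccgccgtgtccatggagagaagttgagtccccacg
Isca2 (chr12:84773020-84773319, plus strand): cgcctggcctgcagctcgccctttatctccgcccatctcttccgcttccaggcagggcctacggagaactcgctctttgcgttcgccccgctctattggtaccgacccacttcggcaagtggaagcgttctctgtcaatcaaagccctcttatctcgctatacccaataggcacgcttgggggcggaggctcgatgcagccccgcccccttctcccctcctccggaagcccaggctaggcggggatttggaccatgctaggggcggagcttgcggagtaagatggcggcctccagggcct
Nubp2 (chr17:24886301-24886600, minus strand): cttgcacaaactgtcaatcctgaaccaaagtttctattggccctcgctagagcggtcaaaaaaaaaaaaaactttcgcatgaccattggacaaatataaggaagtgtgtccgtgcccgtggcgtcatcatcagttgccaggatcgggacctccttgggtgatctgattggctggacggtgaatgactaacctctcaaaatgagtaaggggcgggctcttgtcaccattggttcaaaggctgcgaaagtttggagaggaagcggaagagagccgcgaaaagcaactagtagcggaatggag
A match is a description of these letters and not of binding.

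Levels were compared between genes per length of transcript, as CPM per kilobase of the principal coding transcript in GENCODE release M21. Iscu, the scaffold on which clusters are built, was the highest at 41.8 ± 1.27 in cKO and 52.0 ± 2.34 in control cells (mean ± SD, n = 3 each). Isca1, which acts with Isca2 late in the mitochondrial pathway, followed at 28.4 ± 1.13 in cKO and 31.5 ± 2.47 in control cells. The same quantity was 15.7 ± 1.29 in cKO and 19.0 ± 0.68 in control cells for Nubp2, a subunit of the cytosolic scaffold. Isca2, Nfs1, Hscb and Ciao1 lay closer together, between 9.24 and 11.9 in cKO and between 10.2 and 14.8 in control cells. In control libraries Isca2 stood above the other 3 in every library, while the ranges of Nfs1 (11.3 to 13.2), Hscb (9.46 to 12.7) and Ciao1 (9.29 to 10.9) overlapped. Glrx5 (4.34 ± 0.52 in cKO, 5.53 ± 0.32 in control) and Ciapin1 (3.76 ± 0.10 in cKO, 3.93 ± 0.38 in control) were the lowest.

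This order depended in part on the length used, for Isca1 and Isca2 among others. In the deposited FPKM (fragments scaled to gene length and sequencing depth), Isca1 had 4.49 ± 0.22 in cKO and 4.95 ± 0.41 in control cells, below Hscb at 7.43 ± 0.76 in cKO and 8.16 ± 1.32 in control cells. The length behind those FPKM values followed the union of all annotated exons, retained introns included, with a ratio of 1.15 that was the same to 3 digits at the 5th and 95th percentiles of genes. For Isca1 that union is 10680 bp against 1942 bp for the coding transcript, and for Ciapin1 it is 9212 bp against 4359 bp. Isca2, with 1838 bp against 883 bp, had a mean FPKM of 4.86 in cKO and 6.11 in control cells. That was below Hscb, and below Ciao1 at 7.73 in cKO and 8.51 in control cells. Iscu was the highest of the 9 genes on both scales.

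Iscu was lower in cKO cells and was the only one of the 9 assembly genes to pass the test between genotypes. All 9 had negative log2 fold changes, from -0.35 to -0.02 with a median of -0.15, where 49.6% of all genes tested were negative and their median was 0.00. By edgeR's quasi-likelihood test at a Benjamini-Hochberg adjusted p below 0.05, 0 of the 9 rose and 1 fell, against 1.06% of tested genes called lower, 1.36% called higher and 2.42% called in either direction. DESeq2 and limma-voom likewise called 1 of the 9, against 874 and 704 of all 16843 genes tested. At an unadjusted p below 0.05, 4 of the 9 were lower, against 8.79% of tested genes, and 0 were higher. The 3 cKO libraries were all below the 3 control libraries for 5 of the 9, against 11.4% of tested genes, and all above them for 0 of the 9, against 11.1%. The plot of each library shows how small these differences were beside the full level.

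**Figure D1:**
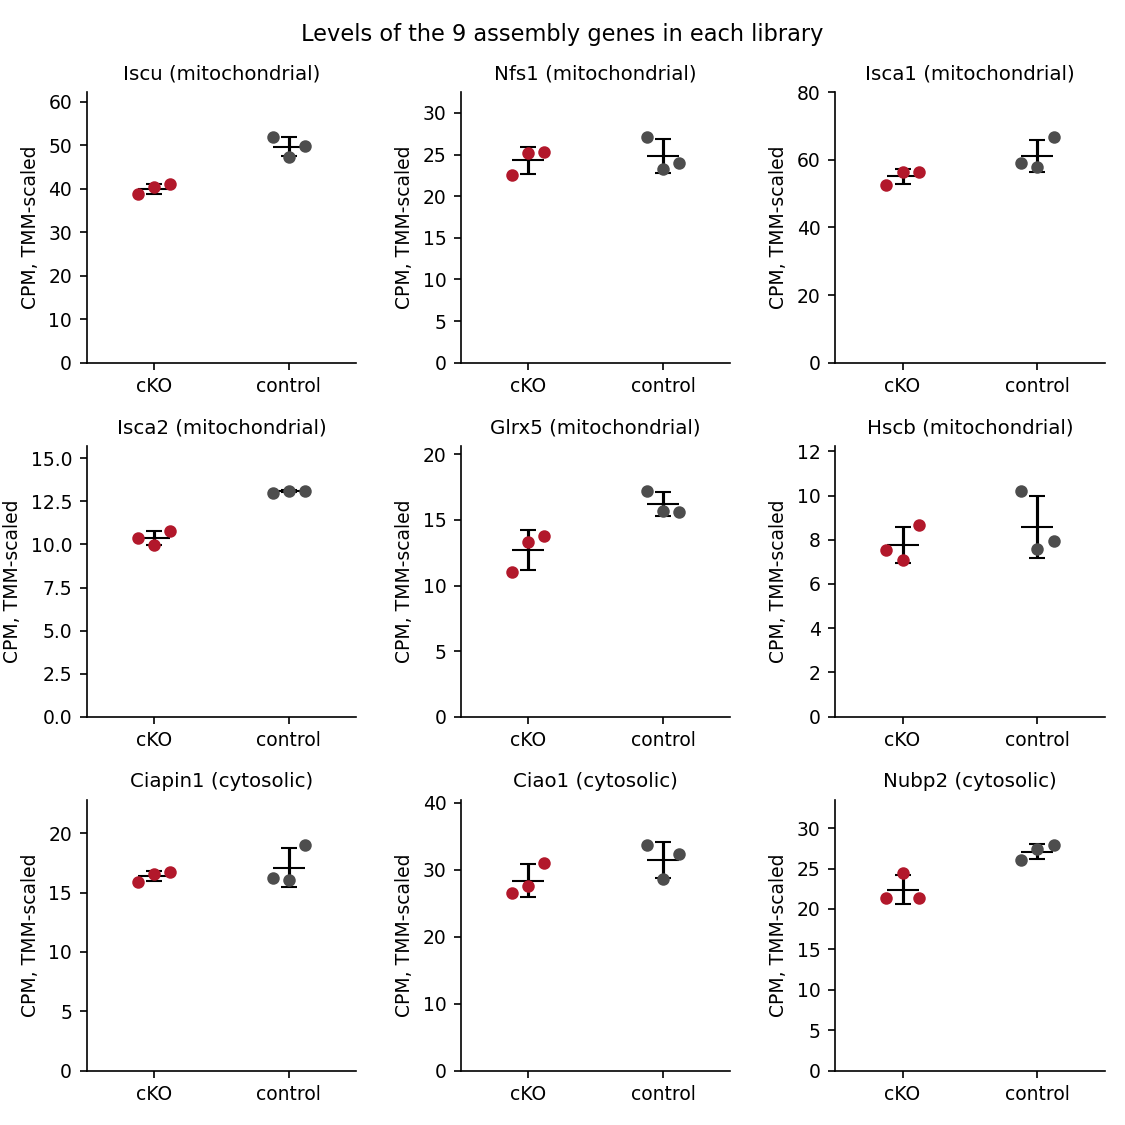
Level of each of the 9 assembly genes in CPM after TMM scaling (vertical axes, starting at 0), with 1 point per library for cKO (red, left) and control (grey, right); bars give mean ± SD (n = 3). The genotypes do not overlap for Iscu, Isca1, Isca2, Glrx5 and Nubp2, and they overlap for Nfs1, Hscb, Ciapin1 and Ciao1.

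Sulfur enters the pathway through Nfs1, the cysteine desulfurase. Nfs1 stood at 22.5, 25.2 and 25.3 CPM in cKO replicates 1 to 3, against 27.1, 23.3 and 24.0 CPM in control replicates 1 to 3. The genotypes overlapped in part, with control replicate 1 above every cKO library and cKO replicate 1 below every control library. The log2 fold change (-0.02, SE 0.09, edgeR adjusted p = 0.924) turned positive without cKO replicate 1 (0.03) or control replicate 1 (0.05). The part of the overlap with Gm28036 in these values was not tested.

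The scaffold gene Iscu fell to 38.7, 40.5 and 41.0 CPM in cKO replicates 1 to 3, against 51.9, 47.4 and 49.9 CPM in control replicates 1 to 3. The highest cKO library was well below the lowest control library, and the spread within each genotype was narrow. The log2 fold change was -0.31 with an SE of 0.07, a difference of -19.5% (edgeR adjusted p = 0.0316), which placed Iscu at rank 247 of the 16843 genes by p. The size held at -0.35 to -0.28 with any library left out, but the call held only without cKO replicate 3 (adjusted p = 0.0367). It was lost without any of the other 5 libraries, where the highest adjusted p was 0.186 without cKO replicate 1. The transcript of Iscu is short (957 bp), and genes of 204 to 1406 bp, the shortest of 10 equal groups of genes with a mean log2 CPM above 3, had a median log2 fold change of -0.14. With the trend over length removed from each library, the log2 fold change of Iscu was -0.25 (adjusted p = 0.0735) by exon union and -0.21 (adjusted p = 0.125) by coding transcript. DESeq2 (adjusted p = 0.00369) and limma-voom with sample weights (adjusted p = 0.0196) called it too.

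Hscb is the co-chaperone that, with the heat shock protein encoded by Hspa9, releases the new cluster from the scaffold. Hscb was at 7.54, 7.09 and 8.67 CPM in cKO replicates 1 to 3, against 10.2, 7.60 and 7.95 CPM in control replicates 1 to 3. These values overlapped, with control replicate 1 apart from the other 5 libraries. The log2 fold change was -0.14 with an SE of 0.15 (adjusted p = 0.679), and -0.03 and -0.02 with the length trend removed by exon union and by coding transcript. It was 0 without control replicate 1 (adjusted p = 0.999).

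Glrx5 encodes the glutaredoxin that receives the cluster and passes it on, and its loss impairs heme synthesis in zebrafish and in humans. Glrx5 was at 11.0, 13.3 and 13.8 CPM in cKO replicates 1 to 3, against 17.2, 15.7 and 15.6 CPM in control replicates 1 to 3. All cKO libraries lay below all control libraries, with cKO replicate 1 the lowest. The log2 fold change of -0.35 with an SE of 0.11 was the most negative of the 9, but at this spread it did not pass (adjusted p = 0.142), nor in any alternative, where the adjusted p ran from 0.0607 to 0.427. Its transcript is longer (2925 bp), and removal of the length trend left -0.33 by exon union and -0.34 by coding transcript.

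Isca1 and Isca2 encode partner proteins needed for the later, larger type of mitochondrial cluster. Isca2 was at 10.4, 9.95 and 10.8 CPM in cKO replicates 1 to 3, against 13.0, 13.1 and 13.1 CPM in control replicates 1 to 3. The 3 control libraries were almost equal and all cKO libraries lay below them. Its log2 fold change was -0.33 with an SE of 0.11 (adjusted p = 0.127), and -0.25 and -0.22 with the length trend removed by exon union and by coding transcript. Isca1 was at 52.6, 56.3 and 56.4 CPM in cKO replicates 1 to 3, against 59.0, 57.9 and 66.7 CPM in control replicates 1 to 3. The genotypes were separated only narrowly, by cKO replicate 3 and control replicate 2, and the log2 fold change was -0.15 with an SE of 0.07 (adjusted p = 0.293). It was -0.08 without control replicate 3 (adjusted p = 0.663), and -0.20 and -0.11 with the length trend removed by exon union and by coding transcript.

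Among the cytosolic genes, Nubp2 differed most. This ATPase forms the cytosolic scaffold with the product of Nubp1. Nubp2 was at 21.3, 24.5 and 21.3 CPM in cKO replicates 1 to 3, against 26.0, 27.4 and 27.9 CPM in control replicates 1 to 3, with no overlap. The log2 fold change was -0.28 with an SE of 0.09, which did not pass (adjusted p = 0.122); over the alternatives the adjusted p ran from 0.0573 to 0.392. With the length trend removed it was -0.21 by exon union and -0.20 by coding transcript.

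Ciao1 encodes the protein that, in the targeting complex, hands clusters to their final recipients. Ciao1 was at 26.5, 27.6 and 31.1 CPM in cKO replicates 1 to 3, against 33.7, 28.6 and 32.3 CPM in control replicates 1 to 3. The genotypes overlapped, because cKO replicate 3 exceeded control replicate 2, and the log2 fold change was -0.15 with an SE of 0.09 (adjusted p = 0.432; -0.22 to -0.10 with a library left out). Ciapin1 encodes the partner of the reductase NDOR1 that supplies electrons to cytosolic assembly. Ciapin1 was at 15.9, 16.6 and 16.7 CPM in cKO replicates 1 to 3, against 16.2, 16.1 and 19.0 CPM in control replicates 1 to 3. It overlapped as well, and its log2 fold change of -0.06 with an SE of 0.10 (adjusted p = 0.811) turned to 0.03 without control replicate 3.

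**Figure D2:**
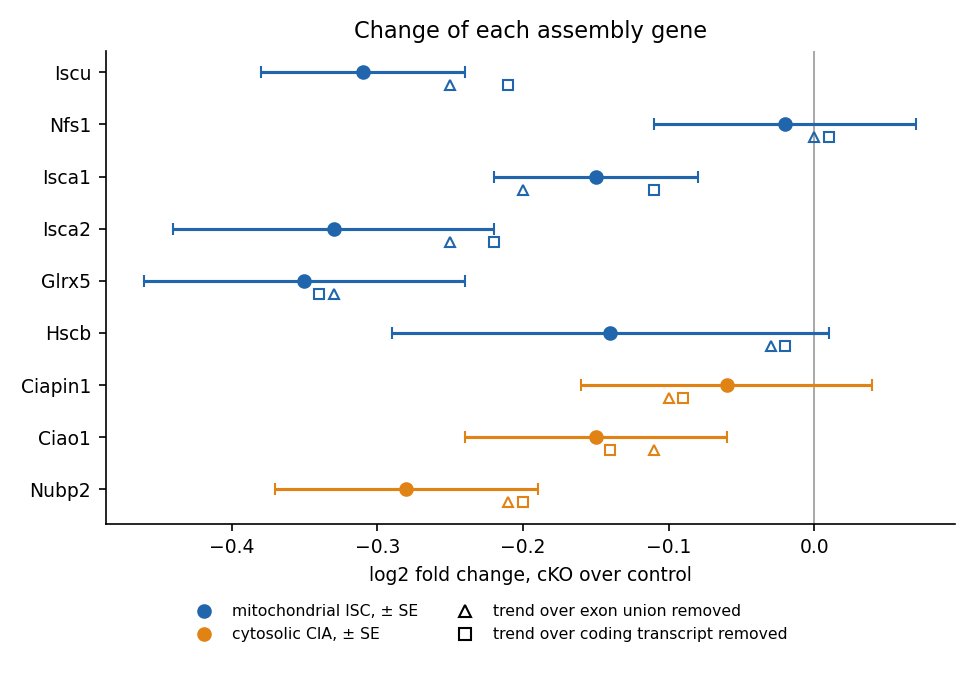
Log2 fold change of each assembly gene, cKO over control (horizontal axis), with filled points and bars for edgeR estimates ± SE, mitochondrial genes in blue and cytosolic genes in orange; open triangles and squares give the estimates with the length trend removed by exon union and by coding transcript. All 9 filled points lie below 0, from -0.35 for Glrx5 to -0.02 for Nfs1. The open symbols of Iscu, Isca2, Hscb and Nubp2 lie nearer 0, and those of Nfs1, Glrx5 and Ciao1 slightly nearer. Those of Ciapin1 (-0.10 and -0.09) lie farther from 0 than its filled point (-0.06). For Isca1 they lie on both sides of it (-0.20 and -0.11 around -0.15).

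Both branches of the pathway had negative medians. The median log2 fold change was -0.23 over the 6 mitochondrial genes and -0.15 over the 3 cytosolic genes; this difference was not tested, and each branch held genes near 0 (Nfs1 and Ciapin1) and genes near -0.3 (Iscu and Nubp2). By library, the mean log2 deviation of the mitochondrial genes from the control mean was -0.30, -0.22 and -0.14 in cKO replicates 1 to 3, against 0.08, -0.07 and -0.01 in control replicates 1 to 3. For the cytosolic genes it was -0.23, -0.12 and -0.13 in cKO replicates 1 to 3, against -0.01, -0.07 and 0.08 in control replicates 1 to 3. Both branches were lowest in cKO replicate 1. With the length trend removed, the medians were -0.22 for the mitochondrial and -0.11 for the cytosolic genes by exon union, and -0.16 and -0.14 by coding transcript. Median coding transcript lengths were 1450 bp for the mitochondrial and 3075 bp for the cytosolic genes.

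**Figure D3:**
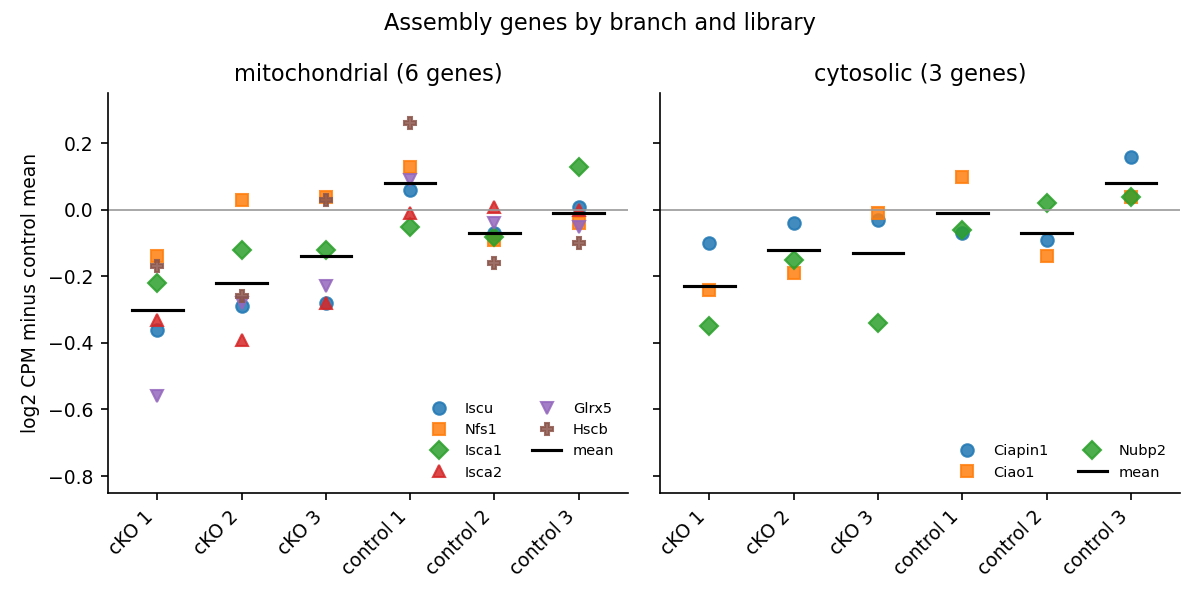
Log2 CPM of each assembly gene minus its mean in the control libraries (vertical axis) in the 6 libraries (horizontal axis), for the 6 mitochondrial genes (left) and the 3 cytosolic genes (right); black lines give the mean over genes. The mean is lowest in cKO replicate 1 in both panels, at -0.30 and -0.23, and Nfs1 is the highest mitochondrial gene in every cKO library.

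The genes did not all vary together over the 6 libraries. Iscu correlated with Isca2 (Pearson r = 0.94 on log2 CPM), Glrx5 (0.93) and Nubp2 (0.85), whose genotypes were also separated. Its r was 0.78 with Ciao1, whose genotypes overlapped, and 0.77 with Isca1, whose genotypes were separated. It was lower with Hscb (0.57), Nfs1 (0.39) and Ciapin1 (0.38). Hscb went with Ciao1 (0.83) and Nfs1 (0.72), all 3 highest in control replicate 1, as were Iscu and Glrx5. Isca1 went with Ciapin1 (0.87), both highest in control replicate 3, as was Nubp2. Among 8617 other genes with at least 10 CPM on average, the profiles most like that of Iscu were those of Emc4 (r = 0.994), Plp2 (0.993), Slc25a11 (0.993), Slc11a2 (0.991) and Ubxn1 (0.991), and 1.91% of these genes exceeded 0.95. Their log2 fold changes were -0.28, -0.25, -0.29, -0.48 and -0.25. These correlations describe 6 libraries and carry no test. Genotype was not removed, so they include the difference between genotypes. Genes picked for likeness to Iscu will therefore tend to be lower in cKO cells as well.

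Of the 7 head-to-head neighbours, 0 were called by edgeR, against 2.42% of all genes tested. At an unadjusted p below 0.05 there was 1 (Npc2), against 17.2% of all genes tested. DESeq2 called 1 (Npc2) and limma-voom 0, against 874 and 704 of all 16843 genes tested. Sart3, a splicing factor gene that starts beside Iscu, was at 46.2 ± 0.95 CPM in cKO and 46.7 ± 1.63 CPM in control cells (mean ± SD, n = 3 each), a log2 fold change of -0.02 with an SE of 0.06 (edgeR adjusted p = 0.922). The log2 ratio of Iscu to Sart3 was -0.23, -0.22 and -0.17 in cKO replicates 1 to 3, against 0.21, -0.02 and 0.09 in control replicates 1 to 3, with no overlap. An exact two-sided permutation test of that ratio gave p = 0.1, the smallest that 3 against 3 libraries allow, and 0.35 after Benjamini-Hochberg adjustment over the 7 pairs. Npc2, the lysosomal cholesterol carrier gene beside Isca2, was at 819 ± 16.0 CPM in cKO and 934 ± 45.1 CPM in control cells, without overlap, a log2 fold change of -0.19 with an SE of 0.06 (edgeR adjusted p = 0.127, DESeq2 adjusted p = 0.0268). The ratio of Isca2 to Npc2 did not overlap between genotypes either (difference -0.15, exact permutation p = 0.1). Spsb3, beside Nubp2, had a log2 fold change of -0.06 with an SE of 0.11 (adjusted p = 0.825), and the ratio of this pair overlapped. The remaining neighbours were at -0.11 (Coq9), -0.09 (Chek2), -0.09 (Tmem127) and 0.07 (Romo1), with ratios that overlapped in all 4 pairs.

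**Figure D4:**
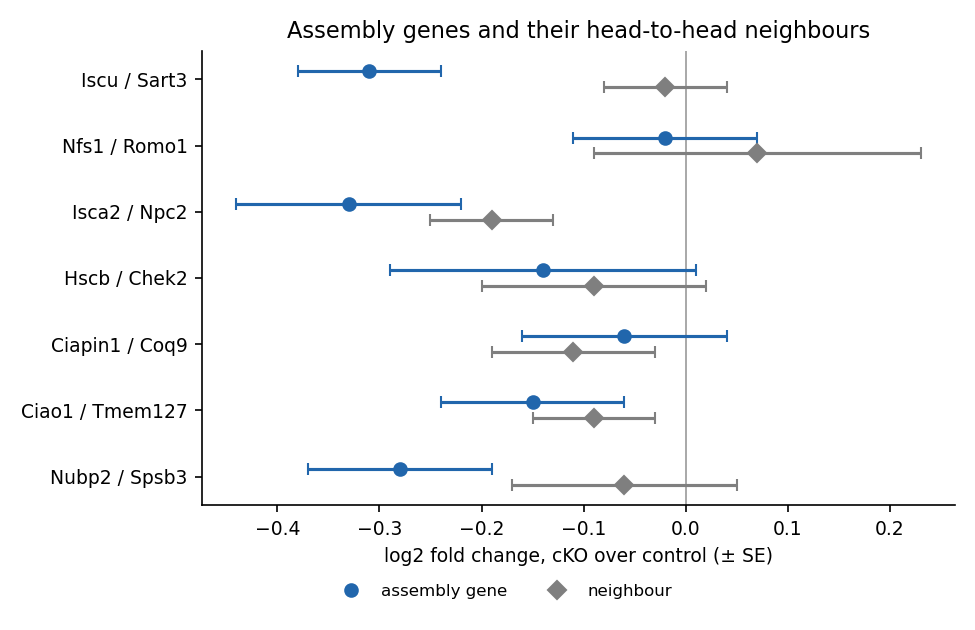
Log2 fold change, cKO over control, of 7 assembly genes (blue circles) and of the protein-coding gene that starts head to head with each (grey diamonds); bars are ± SE of the edgeR estimate. Iscu lies at -0.31 and its neighbour Sart3 at -0.02, while both genes of the Isca2 and Npc2 pair lie below 0.

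The other genes of mitochondrial assembly were mostly negative too. Of 16 measured, 0 rose and 0 fell by edgeR. At an unadjusted p below 0.05, 4 were lower, against 8.79% of genes tested, and 0 were higher. Negative log2 fold changes were found for 13, against 49.6% of genes tested, and the median of the 16 was -0.17. Grpel1, the nucleotide exchange factor of the mitochondrial heat shock protein, had the smallest p of the 16. It was the only one of them that DESeq2 and limma-voom called. Grpel1 was at 33.2 ± 1.40 CPM in cKO and 40.5 ± 1.05 CPM in control cells (-0.29, SE 0.07, edgeR adjusted p = 0.0508). Hspa9, the heat shock protein that acts with Hscb, was at -0.16 with an SE of 0.06 (0.176). Ndufab1, the acyl carrier protein that also belongs to complex I, was at -0.33 with an SE of 0.11 (0.151), and Fdx2, the ferredoxin of cluster synthesis, was at -0.44 with an SE of 0.18 (0.244). Fdx2 averaged only 2.68 CPM in cKO and 3.64 CPM in control cells.

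For the cytosolic machinery, 9 of the 10 other symbols listed were matched and Lto1 was not analysed here. Of 10 rows tested, 1 rose and 1 fell, against 1.36% and 1.06% of all genes tested. Both calls belonged to rows of the same symbol, Ndor1, the reductase that works with Ciapin1. The row Ndor1_ENSMUSG00000006471 rose to 33.7 ± 3.69 CPM in cKO, against 24.9 ± 1.30 CPM in control cells (adjusted p = 0.0302, lost without any library other than cKO replicate 2, with 0.144 without cKO replicate 1). The row Ndor1_ENSMUSG00000115018 fell to 0.31 ± 0.16 CPM in cKO, against 5.91 ± 1.30 CPM in control cells (adjusted p = 0.000105). A further Ndor1 row was too low to test. Summed over the 3 rows, Ndor1 was at 34.0, 32.6 and 37.9 CPM in cKO replicates 1 to 3, against 30.6, 32.4 and 29.5 CPM in control replicates 1 to 3. The sums were only just separated between genotypes, and the assignment of reads among these rows is uncertain. Ciao2a, of the targeting complex that serves iron regulatory protein 1, was at -0.27 with an SE of 0.08 (0.124; called lower by limma-voom), and Glrx3, a cytosolic glutaredoxin, at -0.16 with an SE of 0.06 (0.224). The median of the 10 rows was -0.14, and -0.07 without cKO replicate 1.

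Among the proteins that receive clusters, the list of mitochondrial iron-sulfur proteins had a negative median, and that of the other iron-sulfur proteins lay near 0. Of 15 genes for mitochondrial iron-sulfur proteins, 0 rose, 2 fell and 14 were negative, with a median of -0.24. Over all genes tested, 1.36% were called higher, 1.06% were called lower and 49.6% had negative log2 fold changes. Sdhb, the iron-sulfur subunit of succinate dehydrogenase, fell to 73.9 ± 1.38 CPM in cKO, against 99.4 ± 10.4 CPM in control cells (-0.43, SE 0.07, edgeR adjusted p = 0.0129). Uqcrfs1, the Rieske protein of complex III, fell to 49.9 ± 4.51 CPM in cKO, against 67.4 ± 4.88 CPM in control cells (-0.43, SE 0.08, adjusted p = 0.0173). Both calls were lost without cKO replicate 1 or control replicate 1 or 3. Without cKO replicate 1, the edgeR adjusted p was 0.123 for Sdhb and 0.134 for Uqcrfs1. With the length trend removed, that of Uqcrfs1 was 0.0655 by exon union and 0.0483 by coding transcript. That of Sdhb was 0.022 and 0.027. Etfdh, which feeds electrons from fatty acid oxidation to ubiquinone, was at -0.34 with an SE of 0.09 (0.0688), and the complex I subunit gene Ndufv2 at -0.27 with an SE of 0.08 (0.104). With the length trend removed, the edgeR adjusted p of Etfdh was 0.048 by exon union and 0.113 by coding transcript. Either way, 2 of the 15 were called lower. DESeq2 called 4 of the 15 lower and limma-voom 3, Etfdh among them in both. Of all 16843 genes tested, these tools called 444 and 354 lower.

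Of 24 tested genes for iron-sulfur proteins of the cytosol and nucleus, 0 rose and 0 fell by edgeR. At an unadjusted p below 0.05, 3 were higher and 0 lower, against 1411 and 1481 of all 16843 genes tested. Negative log2 fold changes were found for 10 of the 24, against 49.6% of genes tested. The median of the 24 was 0.09, and it was 0 without control replicate 3 and 0.01 without cKO replicate 3. DESeq2 called 1, Xdh, and limma-voom 0. Those with the smallest p were Xdh, the xanthine dehydrogenase (0.23, SE 0.07, adjusted p = 0.106), the helicase gene Rtel1 (0.29, SE 0.10, 0.173), the nuclease-helicase gene Dna2 (0.26, SE 0.10, 0.214) and the exonuclease gene Exo5 (-0.21, SE 0.12, 0.392). The lists differ in length, with median coding transcripts of 1668 bp for the mitochondrial and 3680 bp for the other proteins. With the trend over exon union removed, the medians were -0.19 and 0.05, and over the coding transcript -0.17 and 0.04. The difference between the lists was not tested.

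Lipoate is made by an iron-sulfur enzyme and attached to mitochondrial dehydrogenases. Of 8 genes for its synthesis and for lipoylated subunits, 0 rose and 0 fell by edgeR, and the median was -0.18. DESeq2 called 2 of the 8 lower and limma-voom 1, against 444 and 354 of all 16843 genes tested. At an unadjusted p below 0.05, 2 were lower, against 8.79% of genes tested. Negative log2 fold changes were found for 7, against 49.6% of genes tested. Gcsh, the lipoylated protein of glycine cleavage, was at -0.31 with an SE of 0.08 (edgeR adjusted p = 0.0776) and Dlat, of pyruvate dehydrogenase, at -0.32 with an SE of 0.09 (0.118). Pdhx and Dlst were at -0.17 and -0.15 with SEs of 0.10 and 0.07 (0.408 and 0.309).

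**Figure D5:**
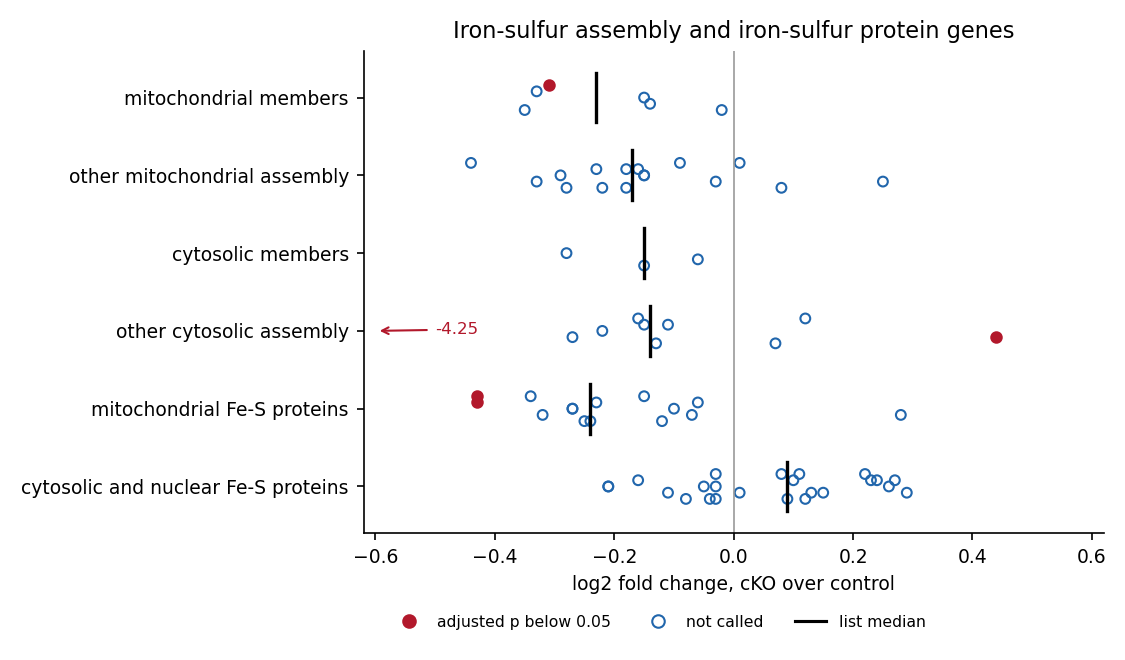
Log2 fold change, cKO over control (horizontal axis), of each tested gene in 6 lists, with filled red points for genes at an edgeR adjusted p below 0.05, open blue points for the rest and black lines for the list medians; the arrow marks a row of Ndor1 at -4.25, beyond the axis. Medians of the 4 assembly lists and of mitochondrial iron-sulfur proteins run from -0.24 to -0.14, and that of cytosolic and nuclear iron-sulfur proteins is 0.09 (0 without control replicate 3).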

How the data were processed

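RNA was sequenced from RANKL-treated macrophages of 2 genotypes, with 3 libraries each. Adapter trimming with cutadapt 1.9 and the mouse build mm10 appear in the submitters' processing notes, while the aligner and annotation are not named there. Raw read counts and FPKM were both deposited for each gene and library, per the file headers; the ratio of the deposited FPKM to the counts follows a union of exons.

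Counts were tested with edgeR 4.0.16 (filterByExpr with a minimum count of 10 and minimum total of 15, TMM scaling, robust quasi-likelihood F test, adjusted p over all genes tested). CPM are TMM-scaled. Standard errors are the log2 fold change over the square root of F. Scripts were tested on simulated data. Coding transcript lengths come from GENCODE M21, whose coordinates equal those of the files for all 9 genes. FPKM served for the order of levels only. DESeq2 1.42.0, limma 3.58.1, other filters, a replicate block, removal of a loess trend over length, and omission of each library were alternatives; the coding transcript length for that trend was added after seeing the data.

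The members and gene lists were chosen with earlier results of these data known. Genes named are all members, the 4 smallest p and every call in each list, the 5 profiles most like Iscu, Slc11a2, Lyz2, and overlapping or head-to-head neighbours, which were added after their positions were seen. Libraries of the same genotype differed by 15.1 to 33.1 chi-square units per degree of freedom, so none looks deposited again.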

Additional observations from a re-analysis of the deposited data

How the results depend on the processing

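The log2 fold changes of Iscu, Isca1, Isca2, Glrx5, Ciao1 and Nubp2 were negative in all 14 alternatives. Hscb was at 0 without control replicate 1 (range with a library left out -0.23 to 0) and negative in the rest. Signs turned for values near 0: Nfs1 was at 0.01 with the trend over coding transcript length removed, 0.03 without cKO replicate 1 and 0.05 without control replicate 1 (range with a library left out -0.07 to 0.05), and Ciapin1 at 0.03 without control replicate 3 (-0.11 to 0.03). Among neighbours, Chek2 was at 0.01 without cKO replicate 1 (-0.17 to 0.01), Romo1 at -0.01 without cKO replicate 2 (-0.01 to 0.19), Spsb3 at 0.02 without control replicate 1 (-0.12 to 0.02) and Sart3 at 0 without control replicate 2 (-0.04 to 0). The number of assembly genes called was 0 with the length trend removed by exon union, 0 by coding transcript, and 0 to 1 with a library left out. The medians of both branches moved by less than the spread between replicates in all 14 alternatives, over -0.28 to -0.16 for the mitochondrial and -0.22 to -0.10 for the cytosolic genes.

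The number of all genes called, 407 by edgeR, was 874 by DESeq2 and 704 by limma-voom, of which 444 and 354 were lower in cKO cells, against 178. With a library left out it ran from 59 to 624 in all and from 20 to 311 lower. With the replicate number as a block 673 genes were called, 357 of them lower, and Iscu had an adjusted p of 0.0308. Of the genes named, it also called Etfdh (0.0152), Dlat (0.02), Ciao2a (0.0376), Ndufv2 (0.0465), Xdh (0.0465) and Grpel1 (0.0493). The main fit had no block, because the labels do not say that the numbers pair the samples. The deviations of libraries with the same number correlated at -0.08, 0.05 and 0.26 for replicates 1 to 3, above 0.1 for replicate 3 only. Between genotypes, libraries with different numbers correlated at -0.222 to 0.147, and these values do not settle the pairing. The cause of these shifts was not tested. Hscb had the fewest reads of the 9 genes, at 380 to 462 in cKO and 436 to 531 in control libraries.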
